A study of Homo sapiens with 8 samples.

Results

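The tetraspanins were examined as a gene family in Alexander1, an established human hepatocellular carcinoma line (ATCC CRL-8024). Members were the protein-coding genes with a numbered TSPAN symbol, plus CD9, CD37, CD53, CD63, CD81, CD82, CD151, UPK1A, UPK1B, PRPH2 and ROM1. This rule uses names only and found 33 genes among the 58206 rows of the count matrix. Of these, 22 had enough counts to be tested and 11 did not.

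Messenger RNA was sequenced from 8 libraries. The 4 parental libraries are labelled wt (Axin1 -): the line carries Axin1 with a deletion of the stretch that binds GSK3, and per the series' design text its Wnt pathway is constitutively active. The 4 others are labelled as the derivative in which full-length Axin1 was restored, and are called restored-labelled here; the treatment label names retroviral VSVG transfer of plasmid 24928 and hygromycin B clonal selection, and it is attached to all 8 libraries, so the genotype label alone separates the groups. The derivative stands for what clonal selection gave, the number of clones is not stated, and no library of an empty vector or of other selected clones was analysed here. Both groups share the Alexander1 background with its truncated Axin1. Whether the 4 replicates of a group came from separate cultures is not stated either, so p-values measure only the spread between these libraries, which may be technical.

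Tetraspanins are small proteins that cross the membrane 4 times and gather partner proteins, above all integrins, immunoglobulin-family proteins and membrane proteases, into membrane domains. Some members work at the cell surface, some are sorted to late endosomes and extracellular vesicles, and the group called TspanC8 carries the protease ADAM10 out of the endoplasmic reticulum. TSPAN12 is a co-receptor for the ligand Norrin on Frizzled-4, which feeds the same beta-catenin pathway that Axin1 restrains, and CD81 on hepatocytes is known as a receptor for hepatitis C virus.

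Total counts were 12563249, 15263761, 11232951 and 13655497 in parental replicates 1 to 4 and 26400782, 12372436, 19987404 and 24135989 in the restored-labelled ones, so that 3 counts stood for 0.108 to 0.267 CPM (counts scaled to library depth in the usual way, after TMM scaling). AXIN1 mRNA was 52.4 ± 3.49 CPM (SD, n = 4) in parental and 45.4 ± 5.13 CPM (SD, n = 4) in restored-labelled libraries (log2 fold change -0.21, SE 0.12, adjusted p = 0.267). It was not higher in the restored-labelled libraries, gene-level counts do not separate the truncated from the full-length transcript, and the direction of each difference is taken from the labels. Replicate 1 stood apart in both groups. On the first principal component (55.9% of variance) restored-labelled replicate 1 lay at 22.2 and its 3 group mates between 48.7 and 56.8, and on the second (21.0%) parental replicate 1 lay at 61.5 against -30.3 to 25.0 for all other libraries. Hepatocyte markers summed to between 20205 and 23838 CPM in parental and between 16515 and 19605 CPM in restored-labelled libraries, and all 8 were detected. The markers did not move together. SERPINA1, which makes up most of the sum, averaged 16130.2 and 10358 CPM, AFP 360 and 164 CPM and APOA1 578 and 297 CPM. FGB averaged 768 and 3175 CPM, ALB 152 and 435 CPM and TTR 3.63 and 12.6 CPM. APOB averaged 3687 and 3256 CPM and HNF4A 307 and 327 CPM. ALB was at 13.8 CPM in restored-labelled replicate 1 and between 445 and 681 CPM in its group mates. Leukocyte markers were near absent, with CD3E at 0 and PTPRC at no more than 2 counts in any library, apart from LYZ (771 ± 238 and 764 ± 108 CPM, SD, n = 4 each). Of the endothelial markers, PECAM1 averaged 5.18 and 48.2 CPM in the 2 groups while CDH5, VWF and KDR had at most 6 counts. The part of these marker differences in the tetraspanin values was not tested.

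Promoter sequence is shown first for the called members TSPAN8 and TSPAN17 and for UPK1A. Promoters run from 250 bases before the start site to 50 after it, per RefSeq on GRCh38.p14, and 25 of the 33 members had an entry. UPK1A is shown because it alone among those 25 holds CTTTGAT, a match to the core letters bound by TCF/LEF factors, the DNA-binding partners of beta-catenin. Its capitals mark, in order, CTTTGTT and CTTTGAT, both read on the opposite strand. The stretches leave out annotated exons of protein-coding genes, which left too little of the called member TSPAN12 to show. They run 5′ to 3′ on the gene's strand: TSPAN8 at chr12:71158100-71158249 on the minus strand, TSPAN17 at chr5:176647234-176647386 on the plus strand and UPK1A at chr19:35666267-35666515 on the plus strand.
TSPAN8: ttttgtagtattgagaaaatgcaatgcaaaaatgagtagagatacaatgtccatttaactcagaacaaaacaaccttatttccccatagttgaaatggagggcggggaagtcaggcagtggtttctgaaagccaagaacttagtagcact
TSPAN17: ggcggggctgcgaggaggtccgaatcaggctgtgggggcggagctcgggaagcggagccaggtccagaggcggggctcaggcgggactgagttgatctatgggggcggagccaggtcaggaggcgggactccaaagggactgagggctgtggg
UPK1A: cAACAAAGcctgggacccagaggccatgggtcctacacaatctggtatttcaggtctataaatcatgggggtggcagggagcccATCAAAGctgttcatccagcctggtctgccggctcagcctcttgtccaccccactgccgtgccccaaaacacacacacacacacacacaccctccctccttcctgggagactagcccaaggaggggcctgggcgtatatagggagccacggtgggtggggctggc

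The printed TSPAN8 stretch had a GC content of 38.7% and that of TSPAN17 69.9%. Searching both strands of the whole windows, CTTTGAT was in 1 of the 25 member promoters and in 2.64% of 27305 RefSeq promoters. The variant CTTTGTT was in 4 (TSPAN11, TSPAN13, TSPAN19 and UPK1A) and in 5.28% of all, and CTTTGAA was in UPK1B only and in 4.53% of all. These 3 patterns share their first 5 letters and differ after them, so no position matches more than 1, and a match is a string of letters, not a measured site. None of the called members with an entry, TSPAN8, TSPAN12 and TSPAN17, held any of the 3 in this window. The GENCODE annotation of TSPAN8 begins further upstream, at 71441898 on the minus strand, and a promoter there was not searched.

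CD63, the tetraspanin of late endosomes and exosomes, was the most abundant member in both groups. Lengths are of all annotated exons of a gene merged, not of the transcripts expressed, so the order between genes depends on the annotation. Per kilobase of exon CD63 averaged 363 CPM in parental libraries (range 295 to 480) and 358 CPM in restored-labelled ones (297 to 453). It made up 55.9% ± 6.08 (SD, n = 4) of the family's length-scaled CPM in parental and 52.5% ± 3.69 (SD, n = 4) in restored-labelled libraries. CD151, which binds laminin-receptor integrins, was the second in both groups, at 92.9 CPM per kilobase (84.9 to 101) and 70.03 CPM per kilobase (61.7 to 79.3), clear of its neighbours in the order.

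Below these a run of members overlapped from one to the next. In parental libraries TSPAN4 averaged 26.04 CPM per kilobase (23.6 to 28.3), TSPAN7 23.1 (19.5 to 26.3), TSPAN13 19.6 (14.0 to 24.1), TSPAN3 16.2 (10.3 to 19.4), TSPAN33 15.6 (13.6 to 17.3), CD81 14.3 (13.6 to 15.1), TSPAN8 12.7 (8.30 to 15.7) and TSPAN6 12.1 (9.24 to 14.2). The ranges of neighbours in that order overlapped, and differences between genes within single libraries were not tested. TSPAN8 was the ninth in parental libraries and the third in restored-labelled ones, where it averaged 30.8 CPM per kilobase and its range (16.3 to 38.0) covered those of TSPAN7 and TSPAN3. CD9, CD82, TSPAN12, TSPAN9, ROM1 and TSPAN1 sat at the low end, each under 4 CPM per kilobase on average in both groups.

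**Figure D1:**
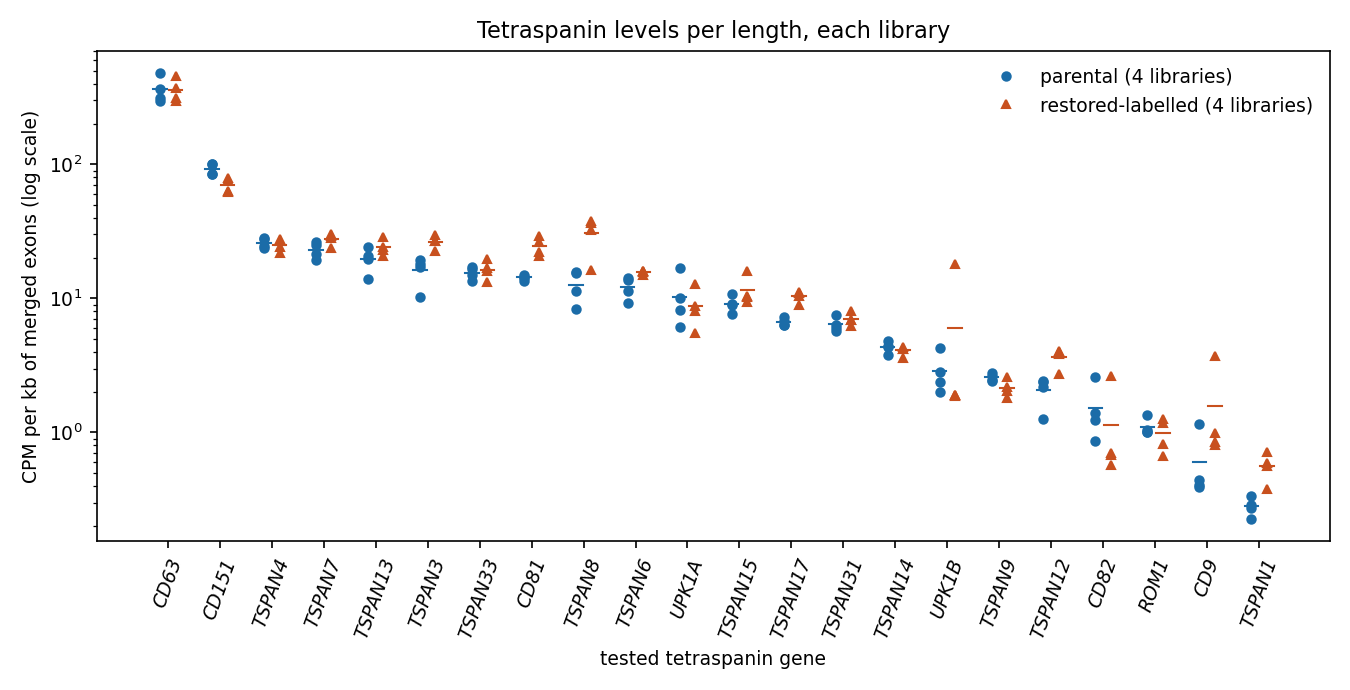
Level of each of the 22 tested tetraspanins in every library, in CPM per kilobase of exon on a log axis, for the 4 parental and the 4 restored-labelled libraries. CD63 leads (means of 363 and 358) and TSPAN1 is the lowest of those tested (0.281 and 0.562).

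Of the 22 tested members, 5 rose in the restored-labelled libraries and none passed the test in the other direction (edgeR quasi-likelihood test, Benjamini-Hochberg adjusted p under 0.05 over 14289 genes). The 5 are TSPAN8, TSPAN12, CD81, TSPAN3 and TSPAN17. That is 22.7% of the tested members, near the 19.2% of all tested genes that passed in either direction. By direction the background was 10.4% higher and 8.77% lower. The counts by subgroup given below rest on too few genes to be read against these shares. At an unadjusted p under 0.05 there were 9 members, 1 of them lower (CD151), and DESeq2, which gave no adjusted p for UPK1B, called 7, adding CD9 as higher and CD151 as lower, while limma-voom called 5. The 4 and 4 CPM values did not overlap in 8 members (7 higher and 1 lower), or 36.4% of those tested, against 23.9% of all genes. The median log2 fold change was 0.29 over the tested members and 0.00 over all tested genes.

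Replicates bear on these counts. Leaving out parental replicate 2, restored-labelled replicate 3 or restored-labelled replicate 4, one at a time, left 3 called members each time, with TSPAN3 and TSPAN12 lost. Calls over all genes fell too, from 2738 to 1508, 1531 and 1394 in that order. Without replicate 1 of both groups, a setting chosen after seeing the data, 6 members were higher and 3 lower. Calls over all genes then rose to 4623. With all libraries, 1485 of the calls among all genes were higher and 1253 lower. That is a share of 54.2% higher, which became 66.5% when libraries were scaled by total counts alone.

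**Figure D2:**
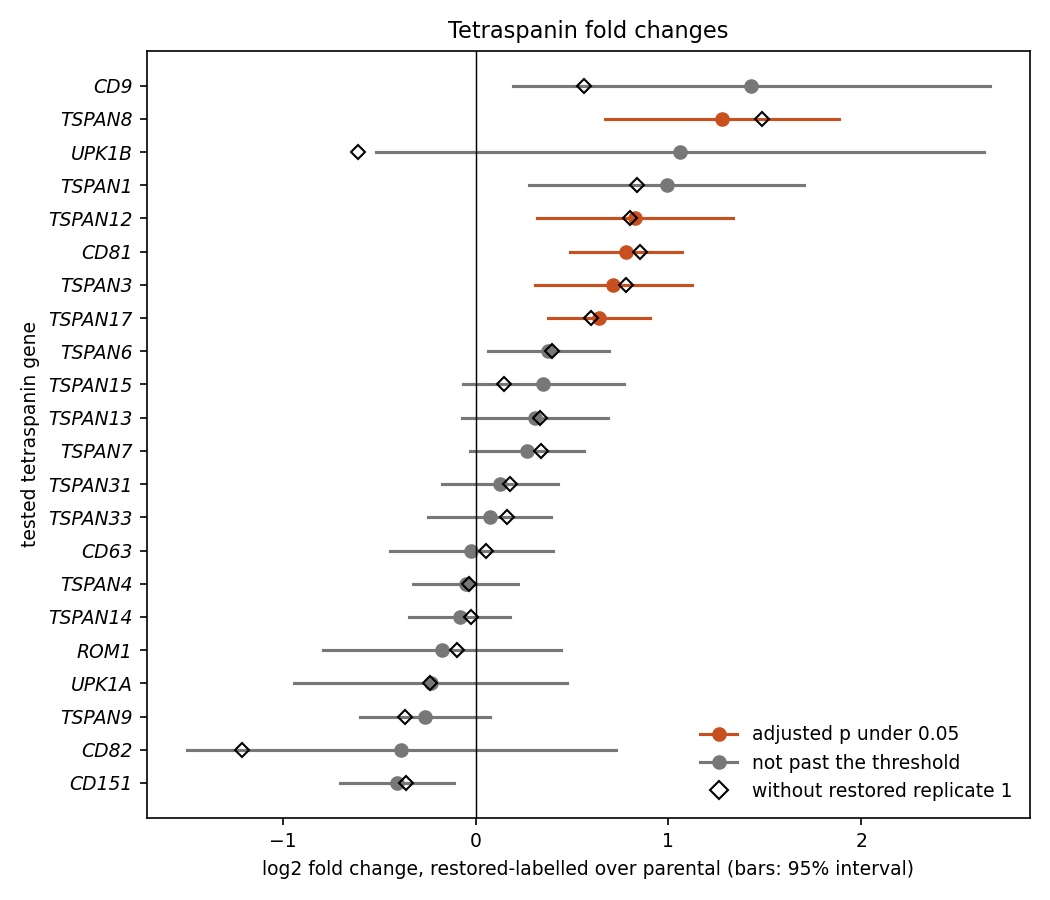
Log2 fold change (restored-labelled minus parental) of the 22 tested tetraspanins, with 95% intervals from edgeR; diamonds give the estimate without restored-labelled replicate 1. The 5 called members lie between 0.64 and 1.28, and the diamonds of UPK1B, CD82 and CD9 lie far from their main estimates.

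Among the members that gather integrins and immunoglobulin-family proteins at the surface, 2 of 6 tested rose and none of the others passed. TSPAN8, a surface tetraspanin of epithelia and carcinomas (ENSG00000127324, chromosome 12, 71125085 to 71441898, GRCh38), was at 20.9, 39.2, 39.5 and 28.4 CPM in parental replicates 1 to 4. In restored-labelled replicates 1 to 4 it was at 41.04, 92.3, 81.7 and 95.6 CPM. Every restored-labelled library was above every parental one, though replicate 1, the lowest of its group, only just passed the highest parental library. TSPAN8 rose from 32.0 ± 9.01 to 77.7 ± 25.1 CPM (SD, n = 4 each; log2 fold change 1.28, SE 0.28, adjusted p = 0.0102), and had the largest change of the 5 called members. It stayed called in all 17 alternatives tried, stricter thresholds aside, with estimates from 1.12 to 1.49.

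CD81, an entry receptor for hepatitis C virus on hepatocytes (ENSG00000110651, chromosome 11, 2376177 to 2397419), was the most uniform of the called members in parental libraries. It was at 111, 106, 100.2 and 107 CPM there and at 153, 216, 195 and 164 CPM in the restored-labelled libraries. The groups were well apart, and the lowest restored-labelled value came from replicate 1. CD81 rose from 106 ± 4.59 to 182 ± 28.97 CPM (SD, n = 4 each; log2 fold change 0.78, SE 0.13, adjusted p = 0.00286). CLDN1, OCLN and SCARB1, which act with CD81 in the entry of that virus, did not pass. CLDN1 had a log2 fold change of -0.35 (adjusted p = 0.364) with all libraries. Without parental replicate 1 it was -0.57, past the threshold as lower (adjusted p = 0.0208).

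CD151 went the other way without passing. Its parental values were 334, 396, 336 and 397 CPM, and its restored-labelled values were 248, 312, 300 and 243 CPM. Each restored-labelled library was below each parental one, and CD151 was the only tested member of which that held. The means were 366 ± 35.4 and 276 ± 35.3 CPM (SD, n = 4 each; log2 fold change -0.41, SE 0.13, adjusted p = 0.0553). It passed without parental replicate 1 (adjusted p = 0.0329). Part of its exons lies opposite POLR2L, and the sources used here do not say whether counting used strand, so reads of the pair may be mixed. POLR2L itself was at 0.27 on the log2 scale (adjusted p = 0.343).

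CD9 and CD82, both known for binding integrins and for restraining cell movement, were low, and their estimates moved with replicate 1. CD9 was at 4.81, 1.83, 1.69 and 1.65 CPM in parental replicates 1 to 4 and at 15.4, 4.13, 3.35 and 3.51 CPM in the restored-labelled ones. Replicate 1 was the highest of each group, and parental replicate 1 overlapped the restored-labelled range. The log2 fold change was 1.43 (SE 0.56, adjusted p = 0.0997). It was 1.95 without parental replicate 1 (adjusted p = 0.0253) and 0.56 without restored-labelled replicate 1 (adjusted p = 0.339). CD82 was at 10.5, 5.01, 5.701 and 3.51 CPM and at 10.6, 2.31, 2.76 and 2.85 CPM. Apart from replicate 1, all restored-labelled libraries were below all parental ones. With every library in, the log2 fold change was -0.38 (SE 0.51, adjusted p = 0.632), and without restored-labelled replicate 1 it was -1.21 (SE 0.36, adjusted p = 0.0384). Leaving out replicate 1 of both groups was a setting chosen after seeing the data. It gave log2 fold changes of 1.07 for CD9 (adjusted p = 0.00618) and -0.82 for CD82 (adjusted p = 0.0240). TSPAN4, the sixth tested gene of this group, differed by -0.05 (adjusted p = 0.802).

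**Figure D3:**
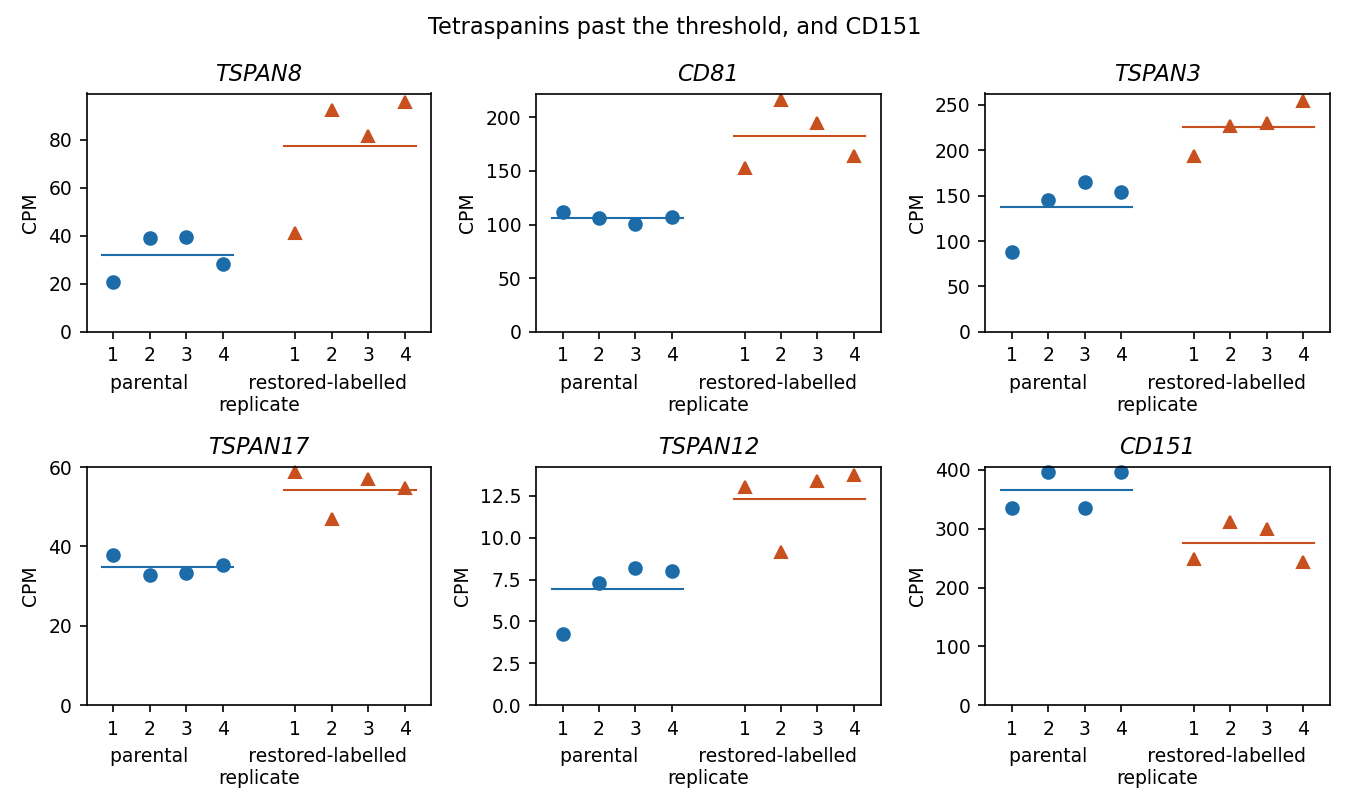
CPM in each library for the 5 called tetraspanins and CD151; points are libraries and horizontal lines are group means. In all 6 panels the groups do not overlap: the restored-labelled libraries are higher for TSPAN8, CD81, TSPAN3, TSPAN17 and TSPAN12 and lower for CD151.

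All 7 endosomal and vesicular members and their near relatives were tested, and 1 rose. TSPAN3, a widely expressed member (ENSG00000140391, chromosome 15, 77041404 to 77083984), was at 87.8, 145, 165 and 154 CPM in parental libraries and at 194, 226, 230 and 254 CPM in restored-labelled ones. The groups did not overlap, with replicate 1 the lowest in each. It rose from 138 ± 34.2 to 226 ± 24.9 CPM (SD, n = 4 each; log2 fold change 0.71, SE 0.19, adjusted p = 0.0225), and the call was lost without parental replicate 2 (adjusted p = 0.0580), without restored-labelled replicate 3 (0.0597) or without restored-labelled replicate 4 (0.0721).

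CD63 did not differ detectably. Its parental values were 1264, 957, 826 and 776 CPM and its restored-labelled values 783, 1194, 973 and 817 CPM. The groups overlapped almost fully. Its log2 fold change was -0.02, with a 95% interval from -0.44 to 0.40 (adjusted p = 0.95). TSPAN6, a tetraspanin tied to vesicle release, had 41.9 to 64.2 CPM in parental and 68.3 to 73.04 CPM in restored-labelled libraries, which did not overlap (log2 fold change 0.38, SE 0.14, adjusted p = 0.088). TSPAN1 stayed near 1 CPM in all libraries, between 0.534 and 0.801 CPM in parental and between 0.898 and 1.69 CPM in restored-labelled ones (log2 fold change 0.99, SE 0.32, adjusted p = 0.054). TSPAN7, TSPAN13 and TSPAN31 had log2 fold changes of 0.27, 0.31 and 0.13, and none of these passed. TSPAN31 shares 1369 exonic bases with CDK4 on the opposite strand; CDK4 fell from 278 ± 11.1 to 181 ± 25.4 CPM (SD, n = 4 each; log2 fold change -0.62, adjusted p = 0.00793), so the value of TSPAN31 is uncertain.

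Of the TspanC8 group, 4 of 6 genes were tested and 1 rose. TSPAN17 (ENSG00000048140, chromosome 5, 176647387 to 176659054) was at 37.9, 32.8, 33.3 and 35.4 CPM in parental and at 58.7, 46.8, 57.01 and 54.7 CPM in restored-labelled libraries. Both groups were tight and well apart. It rose from 34.9 ± 2.32 to 54.3 ± 5.27 CPM (SD, n = 4 each; log2 fold change 0.64, SE 0.12, adjusted p = 0.0053). The 40 tested genes around it had a median log2 fold change of 0.29, whereas the same median was between -0.19 and 0.06 around the other 4 called members.

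TSPAN33 had the highest level of the TspanC8 group per kilobase, at 15.6 CPM in parental and 16.4 CPM in restored-labelled libraries. Its unscaled values were 37.3 to 47.5 CPM and 36.7 to 53.8 CPM, a log2 fold change of 0.07 (adjusted p = 0.755). Without length scaling TSPAN14 was higher, and its merged exons span 17888 bases against 2750 for TSPAN33. TSPAN14 was at 77.4 ± 7.34 and 73.1 ± 6.31 CPM (SD, n = 4 each; log2 fold change -0.08, adjusted p = 0.662). TSPAN15 was at 28.6, 24.2, 23.5 and 20.1 CPM and at 42.7, 25.01, 27.3 and 27.6 CPM, with restored-labelled replicate 1 well above the rest (log2 fold change 0.35, adjusted p = 0.222). TSPAN5 and TSPAN10 had 3 to 16 and 1 to 23 counts per library and were not tested. ADAM10, the protease these members carry, had 48.6, 96.7, 111 and 98.3 CPM in parental and 135, 115, 134 and 194 CPM in restored-labelled libraries; the groups did not overlap, but the difference of 0.71 (log2, SE 0.24) had an adjusted p of 0.0633. Without parental replicate 1, the lowest library, the difference was 0.51 (adjusted p = 0.0480).

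TSPAN12 (ENSG00000106025, chromosome 7, 120787320 to 120858402) was at 4.27, 7.31, 8.20 and 8.02 CPM in parental and at 13.0, 9.16, 13.4 and 13.7 CPM in restored-labelled libraries. The groups did not overlap, with parental replicate 1 and restored-labelled replicate 2 the lowest of theirs. It rose from 6.95 ± 1.82 to 12.3 ± 2.12 CPM (SD, n = 4 each; log2 fold change 0.83, SE 0.23, adjusted p = 0.0294). The call was lost without parental replicate 2 (adjusted p = 0.0712), restored-labelled replicate 3 (0.0843) or restored-labelled replicate 4 (0.0884).

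The receptors TSPAN12 works with were both lower. FZD4, the Frizzled receptor for Norrin, was at 17.8, 24.03, 24.7 and 23.4 CPM in parental and at 17.5, 13.0, 13.7 and 13.7 CPM in restored-labelled libraries. The groups were separated only narrowly, by the replicate 1 libraries. FZD4 fell from 22.5 ± 3.16 to 14.5 ± 2.04 CPM (SD, n = 4 each; log2 fold change -0.63, SE 0.16, adjusted p = 0.0209). It passed in 10 of 17 alternatives, and those it missed included leaving out parental replicate 2 or 3 or restored-labelled replicate 2, 3 or 4 (adjusted p from 0.0537 to 0.0677) and scaling by total counts alone (0.0620). Its exons lie partly opposite PRSS23. LRP5, the co-receptor, fell from 172 ± 27.0 to 111 ± 10.8 CPM (SD, n = 4 each; log2 fold change -0.64, SE 0.14, adjusted p = 0.0104). NDP, which encodes Norrin, had no count in any library.

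For each of the 5 called members, the exact permutation test (two-sided, 70 labelings) gave p = 0.0286, the smallest value that 4 against 4 allow. Groups that do not overlap fix this value, so it adds nothing to the separation already given. The uncalled CD151, TSPAN6 and TSPAN1 had the same p in this test. No other tested gene shared exonic bases with any of the 5 called members. For a rise, more cells expressing a gene and more RNA per cell cannot be told apart in these bulk libraries. The same holds for fewer cells and less RNA per cell in a fall.

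Among the uroplakins, which coat the bladder epithelium, and the photoreceptor disc tetraspanins, 3 of 4 were tested and none passed; none had an unadjusted p under 0.05, limma-voom called 0 of 3, and DESeq2 called 0 of the 2 to which it gave an adjusted p (it gave none for UPK1B). UPK1B was at 4.54, 9.75, 6.41 and 5.44 CPM in parental libraries and at 41.2, 4.29, 4.34 and 4.25 CPM in restored-labelled ones. A single library, restored-labelled replicate 1, was high, and the 3 others were below every parental library. The log2 fold change was 1.06 (SE 0.72, adjusted p = 0.327) with all libraries and -0.61 (adjusted p = 0.145) without that one. Without replicate 1 of both groups, a setting chosen after seeing the data, it was -0.75 (adjusted p = 0.0293). UPK2 and UPK3A, uroplakins of the same coat, had at most 7 and 14 counts in any library.

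UPK1A was at 23.0, 13.8, 11.1 and 8.30 CPM and at 12.0, 17.5, 10.99 and 7.57 CPM, overlapping fully (log2 fold change -0.23, adjusted p = 0.65). Its antisense gene UPK1A-AS1 was at 6.56 ± 2.15 and 8.99 ± 1.39 CPM (SD, n = 4 each), and their reads may be mixed. ROM1, a photoreceptor disc protein, was at 2.74 and 2.45 CPM on average (log2 fold change -0.17, adjusted p = 0.701) and lies partly opposite EML3, which fell by 0.52 on the log2 scale (adjusted p = 0.0237). PRPH2, its partner in the disc rim, had 6 counts in restored-labelled replicate 1 and 0 elsewhere. TSPAN9, which is best known in platelets, was at 17.9 ± 1.13 and 14.8 ± 2.299 CPM (SD, n = 4 each; log2 fold change -0.26, adjusted p = 0.255).

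The leukocyte members were at or near 0: CD37 had at most 2 counts in a library and CD53 had 1 count in all. TSPAN2, TSPAN16, TSPAN19 and TSPAN32 had no count in any library, and TSPAN11 had 1. TSPAN32 lies beside CD81 on chromosome 11. TSPAN18 was not tested either, with 7, 7, 1 and 8 counts in parental and 63, 0, 0 and 1 counts in restored-labelled libraries. Replicate 1 thus held nearly all TSPAN18 counts of its group. A count of 0 in a library allows up to 3 counts, and this floor covers counting error only.

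Restored-labelled replicate 1 exceeded 3 times the mean of its 3 group mates in 3 of the 22 tested members (CD9, CD82 and UPK1B), and in 1.57% of all tested genes. Parental replicate 1 did so in none of the members and in 2.85% of all genes. TIMP1, a secreted ligand that binds CD63, was at 32.5, 4.33, 2.58 and 2.004 CPM in parental and at 61.4, 6.69, 6.06 and 4.61 CPM in restored-labelled libraries, high in replicate 1 of both groups. ITGB4, the integrin chain that pairs with ITGA6 and binds CD151, was at 39.2, 26.7, 23.7 and 16.0 CPM and at 49.5, 9.49, 11.8 and 10.5 CPM. Its log2 fold change was -0.36 with all libraries (adjusted p = 0.65), and without restored-labelled replicate 1 it was -1.31 (adjusted p = 0.00817). The part of this library in the members' values beyond leaving it out was not tested.

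**Figure D4:**
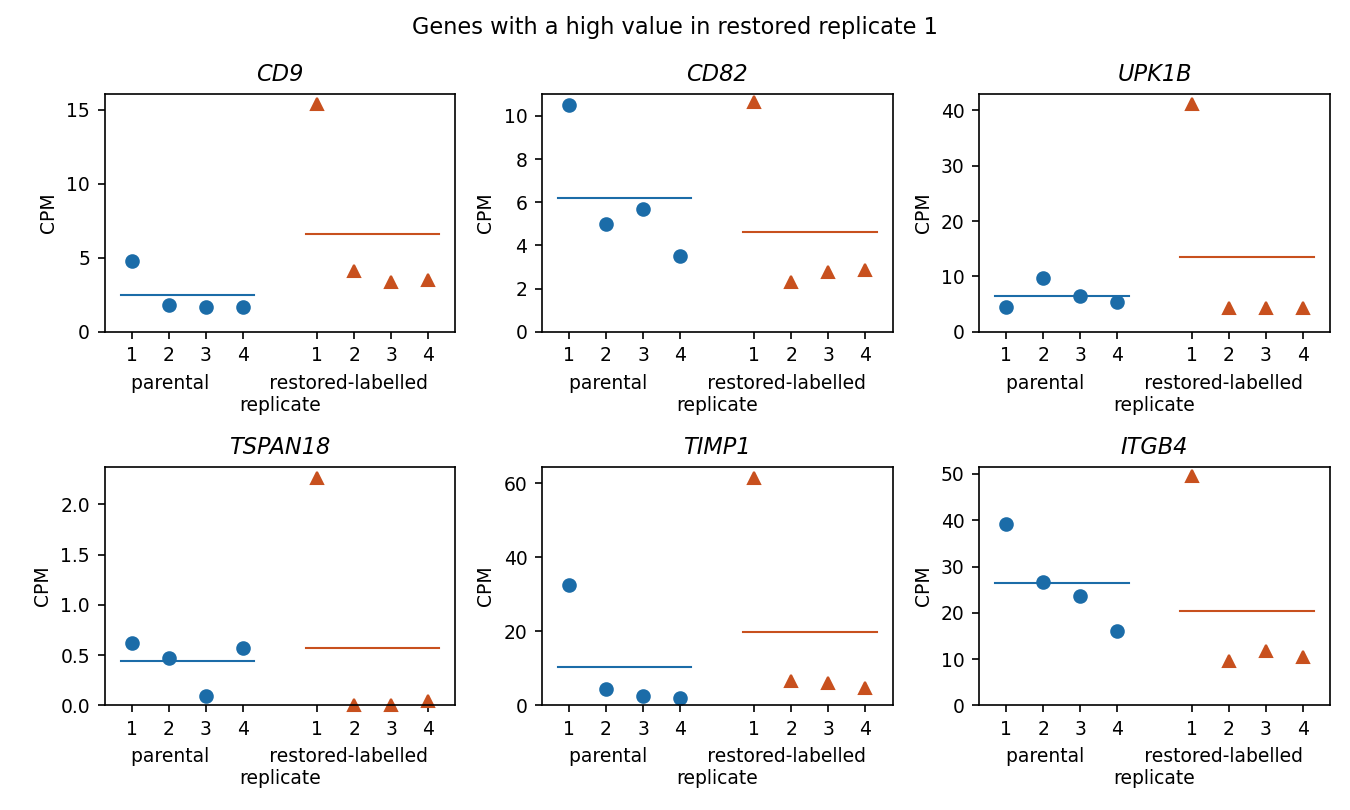
CPM in each library for CD9, CD82, UPK1B, TSPAN18, TIMP1 and ITGB4; points are libraries and horizontal lines are group means. Restored-labelled replicate 1 is the highest library in every panel, at 41.2 for UPK1B where its 3 group mates are at 4.25 to 4.34.

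Of 37 genes for known tetraspanin partners, 33 were tested, 7 rose and 2 fell (27.3%, against the background of 19.2%), with a median log2 fold change of -0.03. The integrins held the largest group of calls, 3 of 5 tested. ITGA3, the alpha chain CD151 binds most tightly, rose from 9.03 ± 3.88 to 27.1 ± 4.71 CPM (SD, n = 4 each; log2 fold change 1.59, SE 0.27, adjusted p = 0.00278). ITGA6, another laminin-binding alpha chain, averaged 37.6 and 119 CPM (log2 fold change 1.66, SE 0.25, adjusted p = 0.00142). ITGB1, the beta chain of both, rose by 1.11 on the log2 scale (SE 0.27, adjusted p = 0.0178), a call lost without restored-labelled replicate 4 (adjusted p = 0.0610). In the same libraries CD151 was below its parental values.

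Of the metalloproteases and their substrates, MMP14, a membrane protease that binds CD63, CD151 and TSPAN12, rose from 13.4 ± 4.67 to 78.0 ± 22.5 CPM (SD, n = 4 each; log2 fold change 2.54, SE 0.27, adjusted p = 0.000222). It was the only one of 6 to pass. CD44, the hyaluronan receptor, rose by 3.38 on the log2 scale (SE 0.73, adjusted p = 0.0102), from no more than 0.801 CPM in parental libraries to between 1.13 and 8.43 CPM. Its log2 fold change was 2.48 without restored-labelled replicate 1 and 4.12 without parental replicate 1, and it passed in both cases. IGSF8, the immunoglobulin-family partner of CD9 and CD81, rose by 0.69 on the log2 scale (adjusted p = 0.0407), with overlapping groups. Leaving out any 1 library other than parental replicate 1 ended this call (adjusted p from 0.0548 to 0.112). ZDHHC2, an enzyme that attaches palmitate to tetraspanins, averaged 5.69 and 9.48 CPM (log2 fold change 0.74, adjusted p = 0.0243), and missed the threshold without parental replicate 2 or 3 or restored-labelled replicate 3 or 4 (adjusted p up to 0.0810). None of the 7 tested genes of vesicle formation passed, where 2 had an unadjusted p under 0.05 and DESeq2 and limma-voom called 0. EGFR and MET, receptors held in tetraspanin domains, did not pass.

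**Figure D5:**
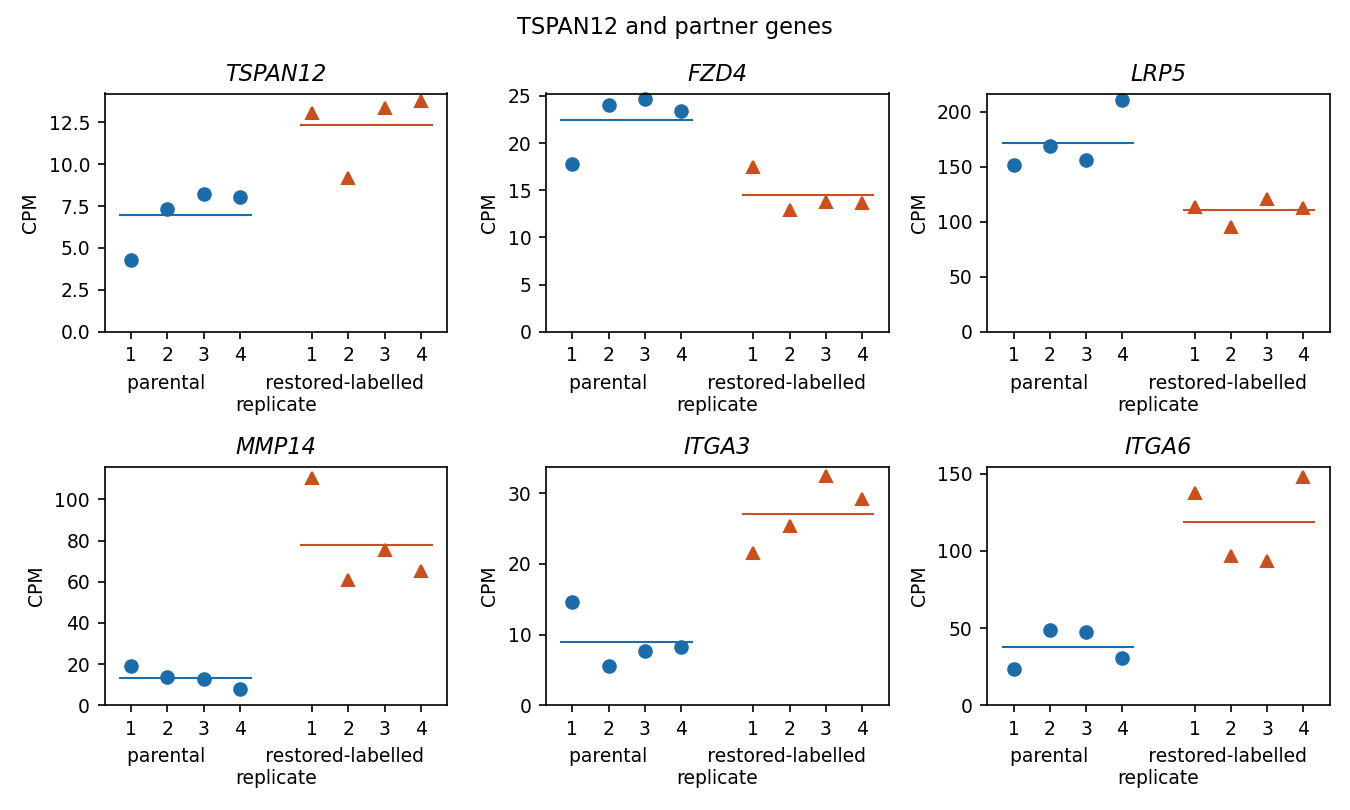
CPM in each library for TSPAN12, its receptor partners FZD4 and LRP5, and the partners MMP14, ITGA3 and ITGA6; points are libraries and horizontal lines are group means. TSPAN12, MMP14, ITGA3 and ITGA6 are higher in the restored-labelled libraries and FZD4 and LRP5 are lower.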

How the data were processed

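Gene-level counts were deposited by the authors as 1 matrix of whole numbers. Per the submitters' processing notes, bcl2fastq, fastp 0.23.1, STAR 2.7.4 and GRCh38 were used; the counting program, annotation and use of strand are not given in the sources used here. Ensembl identifiers were matched to GENCODE 29 (57943 of 58206 found), whose merged exons gave lengths. Genes were kept by edgeR's filterByExpr (minimum count 10, minimum total 15; 14289 genes), scaled by TMM and tested with edgeR 4.0.16 (glmQLFit, glmQLFTest; R 4.3.3) over all 8 libraries, with group as the only term and Benjamini-Hochberg adjustment over all genes. CPM values use TMM-scaled totals. On simulated counts, with 196 of 14106 genes changed and no library set apart, the test recovered 65% of 2-fold and 94% of 4-fold changes. Of its calls, 6.47% were false. In the data 2738 of 14289 genes were called and replicate 1 stood apart, so these shares do not carry over. Alternatives were DESeq2 1.42.0, limma-voom 3.58.1, other scalings and filters, a threshold of 0.01, a replicate block and leaving out libraries. By rule every member was named (called ones with all library values, other tested ones by level and change, untested ones by highest count), as were called partners and FZD4, ADAM10 and ITGB1; fuller values for uncalled members and other partners were chosen after seeing the values. Members and lists were chosen with earlier results of these data known. Protein sequences were not analysed here.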

Additional observations from a re-analysis of the deposited data

Results flagged for a closer look

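In 64 groups of 4 libraries looked at, the gap from the highest or lowest library to its nearest neighbour was divided by the group's whole range on the log2 CPM scale. Libraries whose share passed Dixon's 95% critical value are given here, and chance gives about 1 in 20 groups. CD9 had a share of 0.904 for parental replicate 1 (4.81 CPM, next 1.83) and 0.865 for restored-labelled replicate 1 (15.4 CPM, next 4.13). CD82 had 0.865 for restored-labelled replicate 1 (10.6 CPM, next 2.85), and UPK1B had 0.992 for the same library (41.2 CPM, next 4.34). ROM1 had 0.898 for parental replicate 1 (3.38 CPM, next 2.58). TSPAN12 had 0.867 for restored-labelled replicate 2, which was low (9.16 CPM, next 13.0). Of the 10 partner genes looked at here, the called ones and ADAM10, 2 passed. ADAM10 had 0.834 (48.6 CPM, next 96.7) and FZD4 0.838 (17.8 CPM, next 23.4), both low in parental replicate 1. The other tested partners, TIMP1 and ITGB4 among them, were not part of these groups. Among the tested tetraspanins alone this was 6 of 44 groups (13.6%), against 6.71% over all tested genes.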

How the results depend on the processing

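Of 395 values recomputed for the 22 tested tetraspanins, 373 kept their side of the threshold, 10 lost a call, 11 gained one and 1 reversed. Reversed here means past the threshold with the other sign. That was UPK1B, uncalled at 1.06 with all libraries and called lower at -0.75 without both replicates 1 (adjusted p = 0.0293). Its highest estimate was 1.36, without restored-labelled replicate 4. Of the 373, 358 also kept their sign and 15 did not, all in 7 uncalled members (CD63, ROM1, TSPAN4, TSPAN14, TSPAN33, UPK1A and UPK1B). For 10 partners, the called ones and ADAM10, 151 of 180 values kept their side and sign, 25 lost a call, 4 gained one and 0 reversed. The other tested partners were not in this count. Some of them gained a call under some settings, such as ITGB4 without restored-labelled replicate 1. At an adjusted p under 0.01, 964 genes, 2 higher tetraspanins (CD81 and TSPAN17) and 3 partners passed. DESeq2 called 3504 genes and 1 lower tetraspanin. Leaving out libraries gave 1394 to 4623 genes, 3 to 6 higher and 0 to 3 lower tetraspanins, and 5 to 22 partners; the upper end of genes, lower tetraspanins and partners came without both replicates 1. Limma-voom, DESeq2 size factors, upper-quartile scaling and a mean of at least 1 CPM called the same 5 tetraspanins, no filter added CD9, and total counts added TSPAN1 and moved the median gene by 0.08 on the log2 scale. With a replicate block 2033 genes and 9 partners were called, and 5 tetraspanins, of which 4 were shared (TSPAN12 lost, adjusted p = 0.0512; CD9 gained, adjusted p = 0.0149); FZD4 was lost (adjusted p = 0.0646). Same-numbered libraries correlated at -0.06 to 0.23 in their deviations and 0 of 4 correlated best with their own number. The highest correlations were 0.45 (parental replicate 1 with restored-labelled replicate 2) and 0.44 (parental replicate 3 with restored-labelled replicate 4). Whether same-numbered libraries share more than a number was not tested. The causes were not tested. Depth limits TSPAN1, TSPAN5, TSPAN10 and TSPAN18, at or under about 1 CPM in most libraries.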
